A study of Mus musculus with 20 samples.

Results

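The signals of 10 genes that sense bacterial lipopolysaccharide (LPS), feed back on NF-kB or build the inflammasome were read in mouse blood: Cd14, Tlr4, Ly96, Tlr2, Myd88, Nfkb1, Nfkbia, Tnfaip3, Nlrp3 and Casp1. They were taken by symbol, as every non-control feature that the array files name for a member, which gave 12 features for 10 of the 31093 gene names on the array. Nfkb1 and Nlrp3 have 2 features each, and such a gene was read from its lead feature, the one with the highest mean signal over the arrays. All 12 features carry a RefSeq accession that matched the same symbol. In the mouse build mm9, as the files give it, lead features lie at chr4:66503470-66503529 (Tlr4), chr3:83640344-83640403 (Tlr2), chr9:119245322-119245381 (Myd88), chr3:135254550-135254609 (Nfkb1), chr10:18720776-18720835 (Tnfaip3), chr11:59379981-59380040 (Nlrp3) and chr9:5307206-5307265 (Casp1). Positions of the Cd14, Ly96 and Nfkbia features and of the second Nfkb1 and Nlrp3 features are not reported here.

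The samples were 20 single-colour Agilent arrays of globin-reduced RNA from whole blood, 5 in each of 4 groups. All mice were males 8 to 10 weeks old, bred from heterozygous parents, and labelled either wild type (WT) C57BL/6 or Il10-/-, which are of the strain B6.129P2-Il10tm1Cgn/J and lack the anti-inflammatory cytokine IL-10. Within each genotype 1 group received a whole-body dose of 7 Gy X-rays and 1 group was sham-irradiated (0 Gy), and blood was drawn from the heart 24 h later. The Il10-/- strain serves as a model of inflammatory bowel disease, and the comparisons ask how its baseline state and its radiation response differ from those of WT mice. Whole blood mixes all circulating cells, so in every result below fewer cells of a type and less RNA per cell cannot be told apart.

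LPS in blood is handed by LPS-binding protein to the coreceptor CD14 and from there to the signaling complex of TLR4 and MD-2, the product of Ly96. TLR4, like the lipoprotein receptor TLR2, recruits the adaptor MyD88 and frees NF-kB, which in turn induces its own inhibitors IkB-alpha (Nfkbia) and A20 (Tnfaip3). The same signal primes the inflammasome, in which NLRP3 assembles with an adaptor to activate caspase-1, the protease that matures interleukin-1 beta and interleukin-18. In blood these genes are used mainly by neutrophils and monocytes, while A20 and the NF-kB subunits are also abundant in lymphocytes.

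Values below are log2 signal over the array median, that is, the log2 of the processed intensity of a feature minus the median of that array, so that differences are log2 ratios. Levels of different genes come from different probes and are not set against each other. A feature was called when limma, fitted across 18587 features, gave p under 0.001 with a Benjamini-Hochberg rate under 10%. Of the members, 9 were in that fit. Nfkbia passed the filter on background but differed by 1.5-fold from its median on too few arrays, so it was read with the fit that omits that filter and with an exact permutation test of 5 arrays against 5, which cannot give a p under 0.00794. The p-values measure the spread between the arrays of a group.

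On 18 arrays, 38.5% to 57.8% of spots were well above background. Replicate 5 of WT 0 Gy had 29.9% and replicate 3 of Il10-/- 7 Gy had 34.6%, and repeated spots spread by 0.889 and 0.414 (log2 SD) on these 2 arrays against 0.137 to 0.237 on the others. Replicates 4 and 5 of WT 0 Gy stood apart for the members. Replicate 5 had the lowest value of its group for 9 of 10 members and replicate 4 was among the lowest 2 for 9 of 10, so the members' WT responses and baseline differences are also given without both arrays, a choice made after the values were seen. The arrays were spread over 5 slides, and a slide carried the arrays of all 4 groups that share a replicate number, so within-slide differences are given as counts of slides. The Il10 feature read 2.75 ± 0.31 (SD, n = 5) in Il10-/- 0 Gy and 2.71 ± 0.62 in Il10-/- 7 Gy, against −1.54 ± 0.45 and −1.85 ± 0.61 in the WT groups, where it was well above background on 0 of 5 arrays each. The feature was thus higher in the mice labelled Il10-/-. Whether it lies in the altered part of the gene is not given in the sources used here, and genotype directions below rest on the labels.

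In WT mice 2 of 9 tested members, Cd14 and Ly96, rose after 7 Gy and none fell. Over all features 6.80% were called, 4.48% higher and 2.32% lower. The median difference of the 9 members was 0.44, against −0.02 over all features tested. Without WT 0 Gy replicates 4 and 5, 3 of 9 members were called, Cd14 and Ly96 higher and Tnfaip3 lower, beside 10.9% of all features, 3.14% higher and 7.79% lower. With all arrays the groups did not overlap for Cd14 and Ly96, where 16.1% of all features had groups that did not overlap. The split of calls over all features depended on the scaling: 832 were higher and 431 lower with the array median, 795 and 761 with the 75th percentile, and 705 and 693 with quantile normalization.

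In Il10-/- mice 0 of 9 tested members were called after 7 Gy in limma. An unadjusted p under 0.05 was found for 3 of 9 members, beside 6598 of all 18587 features. Over all features 9.16% were called, 3.29% higher and 5.87% lower, with 611 higher and 1091 lower on the array median and 940 and 922 on the reference array. The median difference of the members was −0.16, against −0.10 over all features. The groups did not overlap for 1 member, Nfkb1, beside 17.0% of all features.

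Between the unirradiated genotypes 1 of 9 members, Cd14, was higher in Il10-/- mice, and 0.845% of all features were called, 157 higher and 0 lower. The 75th percentile gave 41 higher and 2 lower, and the reference array 75 and 6. All 9 differences were above 0, with a median of 0.92, but the median over all features was also shifted, to 0.36. That median was −0.07 with the 75th percentile as the scale, 0.01 when each array was scaled to 1 reference array and 0.53 with normexp, and with the array median it was 0.05 without WT 0 Gy replicates 4 and 5. In that setting 0 of 9 members were called, and the Nfkb1 and Nlrp3 differences were −0.30 and −0.07. The groups did not overlap for 1 member, again Cd14, beside 4.54% of all features.

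Between the irradiated genotypes 0 of 9 members were called, as were 0.00538% of all features. An unadjusted p under 0.05 in limma was found for 1 of 9 members, beside 2066 of all 18587 features. The groups did not overlap for 1 member, Tnfaip3, beside 2.96% of all features. The 8 differences above 0 were not all stable in direction: with normexp background correction those of Cd14, Tlr2, Tlr4, Myd88 and Casp1 fell below 0, where the median over all features was −0.50 against 0.08. The difference between the 2 radiation responses was called for 0 of 9 members and 0% of all features in limma. There an unadjusted p under 0.05 was found for 2 of 9 members, beside 1301 of all 18587 features.

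**Figure D1:**
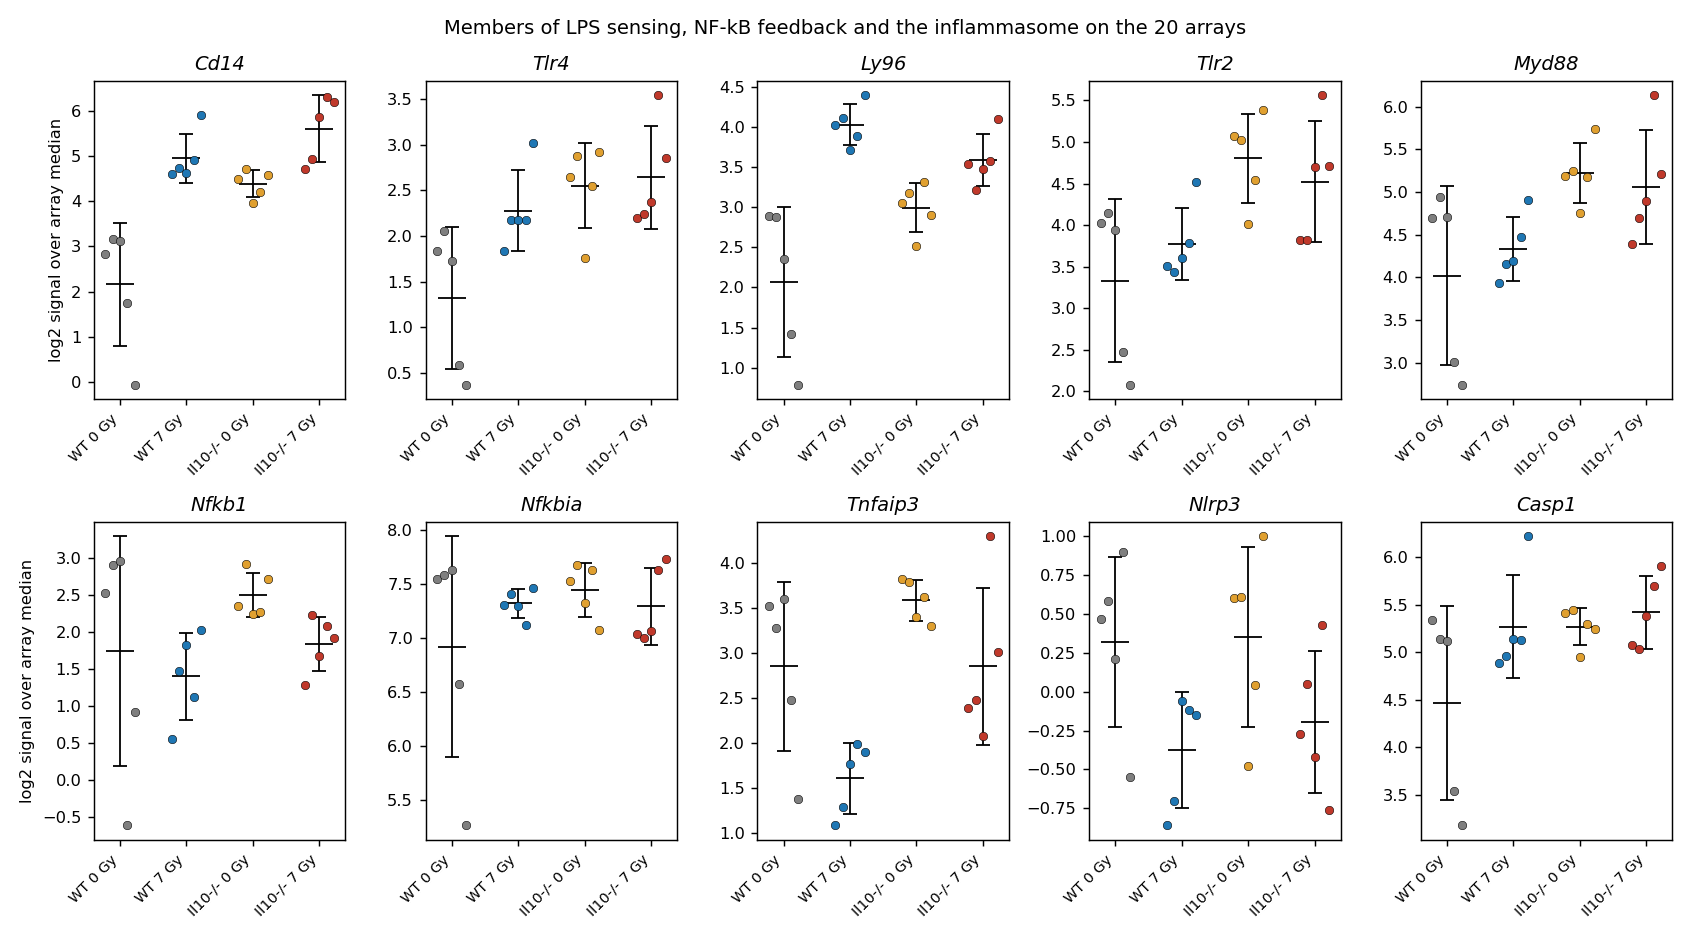
Each point is the log2 signal over the array median (y axis) of a member's lead feature on 1 array, by group (x axis), with replicates 1 to 5 from left to right in each group and the mean and SD as a line and bars. Replicates 4 and 5 of WT 0 Gy lie below the other 3 arrays for most members, Cd14 of all 5 WT 0 Gy arrays lies below every array of the other groups, and Tnfaip3 has its lowest mean in WT 7 Gy.

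Cd14, the LPS coreceptor of monocytes and neutrophils, had the largest difference of the members in both responses and at baseline. Its signal was 2.84, 3.16, 3.11, 1.74 and −0.06 on the 5 WT 0 Gy arrays and 4.60, 4.73, 4.63, 4.90 and 5.90 on the WT 7 Gy arrays. It was 4.49, 4.72, 3.96, 4.21 and 4.57 in Il10-/- 0 Gy and 4.71, 4.93, 5.87, 6.31 and 6.19 in Il10-/- 7 Gy. The WT 0 Gy arrays were below all others, and the remaining groups overlapped their neighbours.

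The Cd14 rise in WT mice was 2.79 (SE 0.57, 95% interval 1.60 to 3.99), or 6.94-fold, with an adjusted p of 0.00456 in limma and a rise on 5 of 5 slides. It was called in every setting run, from 1.85 with normexp to 3.04 with 1 array left out, and was 1.92 without WT 0 Gy replicates 4 and 5. Relative to the median of all features it was 2.81 with the array median and 2.78 to 2.85 under the other scalings, but 1.19 with normexp. Cd14 differed by 1.21 in Il10-/- mice (SE 0.34, 95% interval 0.48 to 1.95) on 5 of 5 slides, with an adjusted p of 0.0248 in limma that met the Benjamini-Hochberg limit and missed the limit on the unadjusted p, at 0.00357. It was called at a Benjamini-Hochberg rate of 5% alone, at 1.36 with the reference array as the scale or with the series table, and at 1.44 without Il10-/- 7 Gy replicate 1. The 2 responses differed by −1.58 (SE 0.70, 95% interval −3.03 to −0.14), with an adjusted p of 0.688 in limma. Without WT 0 Gy replicates 4 and 5 that difference was −0.70.

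At baseline Cd14 was 2.23 higher in Il10-/- mice (SE 0.53, 95% interval 1.12 to 3.34), or 4.69-fold, with an adjusted p of 0.0761 in limma and on 5 of 5 slides. The direction held in every setting run, but the call was lost in 6 of 13 settings other than leaving out single arrays. Without WT 0 Gy replicates 4 and 5 the difference was 1.35 and was not called, and the call was also lost without WT 0 Gy replicate 4 or without any 1 of the 5 Il10-/- 0 Gy arrays, at 2.13 to 2.34. After 7 Gy the genotypes differed by 0.65 (SE 0.38, 95% interval −0.19 to 1.49), with overlapping groups.

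Marker lists moved with the genotype as well. The mean over 7 of 8 mature neutrophil markers, of which at least 6 were well above background on every array, ranged from 6.23 to 7.92 in WT 0 Gy and 8.41 to 9.92 in Il10-/- 0 Gy. It ranged from 6.83 to 7.40 in WT 7 Gy and 7.75 to 9.97 in Il10-/- 7 Gy. The list was thus 1.97 higher in Il10-/- mice at baseline and 1.43 higher after 7 Gy, each on 5 of 5 slides with an exact permutation p of 0.00794. In WT mice it differed by −0.23 after 7 Gy, while Cd14 was 2.79 higher. The mean over 6 of 8 monocyte markers ranged from 3.61 to 5.19 in WT 0 Gy, 3.80 to 4.81 in WT 7 Gy, 4.51 to 5.36 in Il10-/- 0 Gy and 4.06 to 4.51 in Il10-/- 7 Gy. It differed by −0.28 after 7 Gy in WT mice and by −0.82 in Il10-/- mice, where Cd14 was 1.21 higher. In the authors' blood counts the baseline neutrophil percentage differed significantly between the genotypes, and they describe a higher level in Il10-/- mice. After irradiation the neutrophil percentage was significantly higher in WT mice but not in Il10-/- mice. They found no significant difference in the monocyte percentage after irradiation in either genotype. Those counts are percentages of cells, whereas the marker values are RNA signal over the array median. The part of neutrophils and monocytes in the Cd14 differences was not tested.

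**Figure D2:**
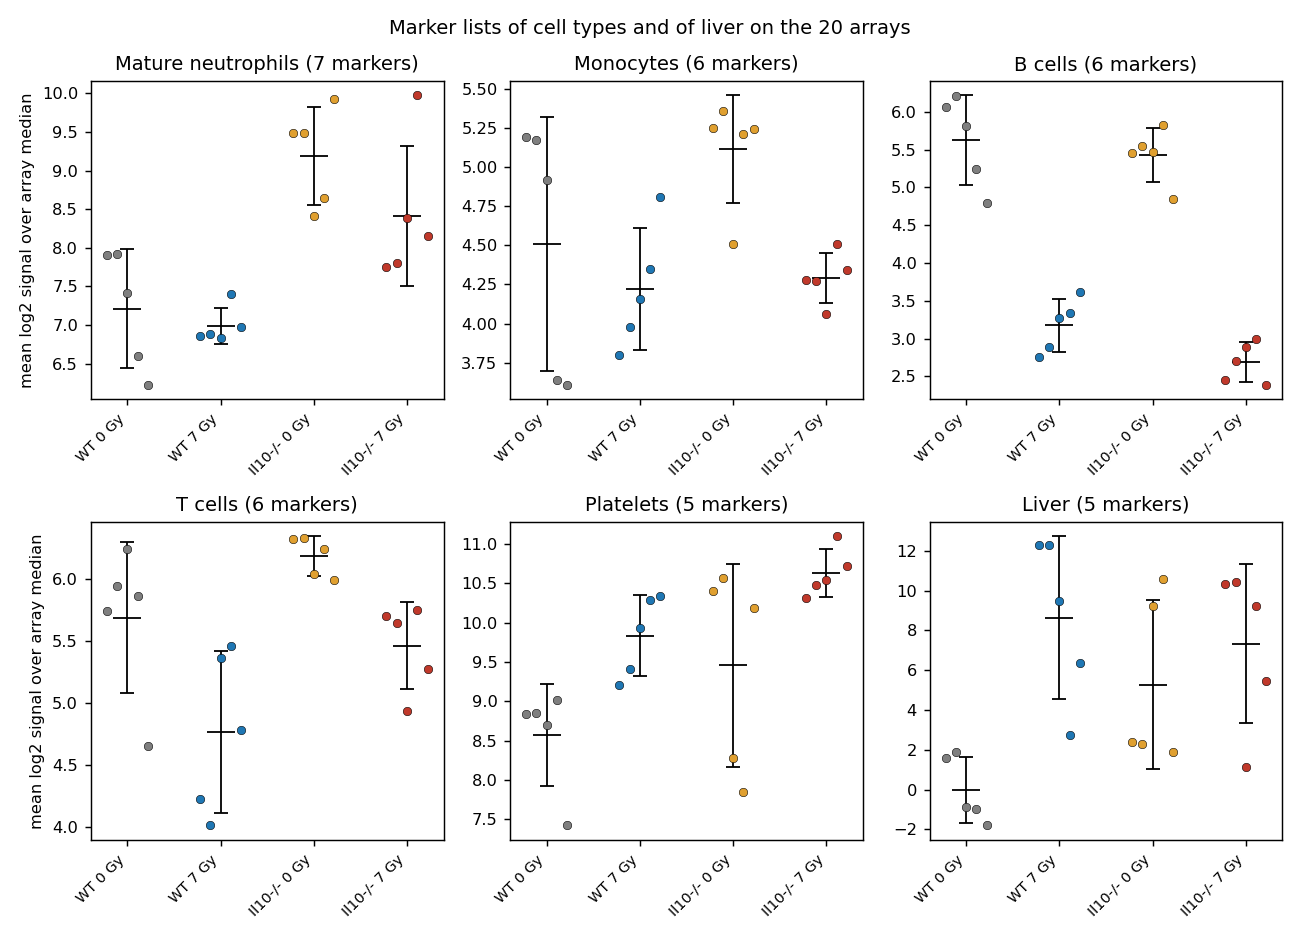
Each point is the mean log2 signal over the array median (y axis) of the markers of 1 cell type or of liver on 1 array, by group (x axis), with the mean and SD of 5 arrays as a line and bars. Neutrophil markers sit higher in both Il10-/- groups than in their WT counterparts, B cell markers are lower after 7 Gy in both genotypes, and liver markers range from −1.80 to 12.29.

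Tlr4, the LPS receptor itself, did not pass the test in any comparison. Its signal was 1.84, 2.06, 1.73, 0.59 and 0.37 in WT 0 Gy, where it was well above background on 3 of 5 arrays, and 1.83, 2.17, 2.18, 2.18 and 3.02 in WT 7 Gy. It was 2.65, 2.88, 1.76, 2.55 and 2.92 in Il10-/- 0 Gy and 2.2, 2.24, 2.37, 3.54 and 2.86 in Il10-/- 7 Gy. The groups overlapped in each comparison. The WT difference after 7 Gy was 0.96 (SE 0.43) with an adjusted p of 0.152 in limma, and the baseline difference of Il10-/- against WT was 1.24 (SE 0.43) with an adjusted p of 0.221. These Tlr4 differences were 0.40 and 0.68 without WT 0 Gy replicates 4 and 5. The difference after 7 Gy in Il10-/- mice was 0.09, with a 95% interval of −0.61 to 0.78.

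Ly96, whose product MD-2 binds LPS inside the TLR4 complex, rose in WT mice. Its signal was 2.89, 2.88, 2.35, 1.42 and 0.79 in WT 0 Gy and 4.02, 4.11, 3.71, 3.89 and 4.39 in WT 7 Gy. It was 3.05, 3.18, 2.52, 3.31 and 2.90 in Il10-/- 0 Gy and 3.54, 3.21, 3.48, 3.58 and 4.10 in Il10-/- 7 Gy. The WT groups were fully separated, and the highest value lay in WT 7 Gy.

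The Ly96 rise in WT mice was 1.96 (SE 0.45, 95% interval 1.01 to 2.90), or 3.88-fold, with an adjusted p of 0.00910 in limma and on 5 of 5 slides. It was 1.32 and still called without WT 0 Gy replicates 4 and 5. The call was lost with normexp, at 1.00, where the median of all features was 0.65, and on leaving out WT 0 Gy replicate 4, at 1.80, or WT 7 Gy replicate 1, 2 or 5, at 1.86 to 1.96. That in Il10-/- mice was 0.59 (SE 0.24, 95% interval 0.07 to 1.11), above 0 on 5 of 5 slides, with an adjusted p of 0.0988. The responses differed by −1.37 (SE 0.50, 95% interval −2.4 to −0.33) on 5 of 5 slides, with an unadjusted p of 0.0122 and an adjusted p of 0.688 in limma, and by −0.73 without WT 0 Gy replicates 4 and 5. The baseline difference of Ly96 was 0.92 (adjusted p = 0.309), and 0.28 without those 2 arrays. After 7 Gy Ly96 was the 1 tested member with a mean below WT in Il10-/- mice, by −0.44 (95% interval −0.95 to 0.07), an order seen on 5 of 5 slides.

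Signal of liver genes differed between the WT groups too. The mean of 5 of 6 liver markers was −1.80 to 1.90 in WT 0 Gy, with 0 of 5 well above background on the lowest array, and 2.74 to 12.29 in WT 7 Gy. It was 1.88 to 10.57 in Il10-/- 0 Gy and 1.15 to 10.42 in Il10-/- 7 Gy. On WT 7 Gy replicates 1 and 2, with liver means of 12.28 and 12.29, Cd14 read 4.60 and 4.73 and Ly96 4.02 and 4.11. On WT 7 Gy replicate 4, with a liver mean of 2.74, Cd14 read 4.90 and Ly96 3.89. On replicates 3 and 5 of that group, with liver means of 9.48 and 6.37, Cd14 read 4.63 and 5.90 and Ly96 3.71 and 4.39. On WT 0 Gy replicates 1 to 5 the liver means were 1.60, 1.90, −0.87, −0.97 and −1.80, and Cd14 and Ly96 were also lowest on replicate 5, at −0.06 and 0.79. At baseline the liver list was 5.30 higher in Il10-/- mice on 5 of 5 slides (exact permutation p = 0.0159). The part of liver RNA in the Cd14 and Ly96 differences was not tested.

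Tlr2, the receptor of bacterial lipoproteins, was printed as 10 spots on each array, so the spread between its spots is known. The spots differed by a median SD of 0.0758, and by 0.729 on WT 0 Gy replicate 5. Its signal was 4.02, 4.15, 3.94, 2.47 and 2.08 in WT 0 Gy and 3.51, 3.44, 3.61, 3.78 and 4.52 in WT 7 Gy. It was 5.07, 5.03, 4.01, 4.54 and 5.38 in Il10-/- 0 Gy and 3.82, 3.82, 4.70, 5.56 and 4.71 in Il10-/- 7 Gy. The SD between mice of a group was 0.44 to 0.98, several times the median SD between spots but not the 0.729 on WT 0 Gy replicate 5. The groups overlapped in each comparison. The baseline difference of Il10-/- against WT was 1.48 (SE 0.47, 95% interval 0.50 to 2.45) on 5 of 5 slides, with an adjusted p of 0.206 in limma. The WT difference after 7 Gy was 0.44 with an adjusted p of 0.583. The Tlr2 values were 0.77 at baseline and −0.26 in the WT response without WT 0 Gy replicates 4 and 5.

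Myd88, the adaptor below both receptors, was also printed as 10 spots, with a median SD of 0.0837 and 0.717 on WT 0 Gy replicate 5. Its signal was 4.69, 4.94, 4.71, 3.01 and 2.74 in WT 0 Gy and 3.93, 4.16, 4.19, 4.47 and 4.91 in WT 7 Gy. It was 5.19, 5.24, 4.75, 5.17 and 5.74 in Il10-/- 0 Gy and 4.39, 4.69, 4.89, 6.13 and 5.21 in Il10-/- 7 Gy. The order of the groups was that of Tlr2, with both WT means below both Il10-/- means and overlap in each comparison. The baseline difference was 1.20 (SE 0.47) on 5 of 5 slides, with an adjusted p of 0.252, and after 7 Gy the genotypes differed by 0.73 (SE 0.34) on 5 of 5 slides, with an adjusted p of 0.452. The radiation differences were 0.31 in WT mice (95% interval −0.70 to 1.33) and −0.16 in Il10-/- mice (95% interval −0.86 to 0.55). The WT value turned to −0.45 and the baseline difference of Myd88 was 0.43 without WT 0 Gy replicates 4 and 5.

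Nfkb1 encodes p105, the precursor of the p50 subunit of NF-kB. Its lead feature read 2.53, 2.91, 2.97, −0.61 and 0.92 in WT 0 Gy and 0.56, 1.48, 1.83, 1.12 and 2.03 in WT 7 Gy. It read 2.36, 2.92, 2.25, 2.28 and 2.72 in Il10-/- 0 Gy and 1.29, 2.23, 1.68, 2.08 and 1.93 in Il10-/- 7 Gy. On this feature all Il10-/- 7 Gy arrays were below all Il10-/- 0 Gy arrays, the single full separation among members in that genotype. The difference was −0.66 (SE 0.25, 95% interval −1.20 to −0.12) on 5 of 5 slides, with an adjusted p of 0.0758 in limma and an unadjusted p above the limit of the call. In WT mice it was −0.34 (SE 0.62), with an SD of 1.55 in WT 0 Gy, and without WT 0 Gy replicates 4 and 5 it was −1.40 (adjusted p = 0.0179), which was not called. At baseline Nfkb1 differed by 0.76, and by −0.30 without those 2 arrays. The second Nfkb1 feature gave −0.70 in Il10-/- mice and −0.83 in WT mice, both not called and both with overlapping groups. The 2 features had the same sign in every comparison except the difference between responses (−0.32 and 0.14).

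Nfkbia encodes IkB-alpha, which holds NF-kB in the cytoplasm and is resynthesized when NF-kB is active. Its signal was 7.55, 7.58, 7.63, 6.57 and 5.26 in WT 0 Gy and 7.31, 7.41, 7.30, 7.12 and 7.46 in WT 7 Gy. It was 7.53, 7.68, 7.32, 7.63 and 7.07 in Il10-/- 0 Gy and 7.04, 7.00, 7.06, 7.63 and 7.73 in Il10-/- 7 Gy. Apart from WT 0 Gy replicates 4 and 5, the 18 arrays lay within 7.00 to 7.73. The differences after 7 Gy were 0.40 in WT mice (95% interval −0.55 to 1.35, exact permutation p = 0.492) and −0.16 in Il10-/- mice (−0.64 to 0.33, exact permutation p = 0.421). Between genotypes they were 0.53 at baseline (exact permutation p = 0.341) and −0.03 after 7 Gy (exact permutation p = 0.841). The sign of the Nfkbia difference turned without WT 0 Gy replicates 4 and 5, to −0.27 in the WT response and −0.14 at baseline.

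Tnfaip3 encodes A20, the ubiquitin-editing enzyme that shuts off signaling to NF-kB, and its lead feature had the lowest radiation difference of the members in both genotypes. Its signal was 3.52, 3.28, 3.60, 2.48 and 1.37 in WT 0 Gy and 1.08, 1.29, 1.76, 1.99 and 1.90 in WT 7 Gy. It was 3.82, 3.79, 3.40, 3.62 and 3.30 in Il10-/- 0 Gy and 2.39, 2.48, 2.08, 4.3 and 3.01 in Il10-/- 7 Gy. WT 7 Gy was below every other array but WT 0 Gy replicate 5, and all Il10-/- 7 Gy arrays were above all WT 7 Gy arrays.

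The WT difference after 7 Gy was −1.25 (SE 0.46, 95% interval −2.21 to −0.28) on 4 of 5 slides, with an adjusted p of 0.0788 in limma, and it was not called. Tnfaip3 was called without WT 0 Gy replicate 5, at −1.61, without WT 0 Gy replicates 4 and 5, at −1.86, and with the values of the series table, at −1.33, while normexp gave −0.30, or −0.96 relative to the median of all features. The Il10-/- difference was −0.74 (SE 0.37, 95% interval −1.55 to 0.07), on 4 of 5 slides. The irradiated genotypes differed by 1.25 (SE 0.40, 95% interval 0.38 to 2.12) on 5 of 5 slides, with an unadjusted p of 0.00901 and an adjusted p of 0.381 in limma. At baseline Tnfaip3 differed by 0.74, and by 0.12 without WT 0 Gy replicates 4 and 5. The gene is also expressed by lymphocytes. The mean of 6 of 6 B cell markers was 4.80 to 6.21 in WT 0 Gy, 2.75 to 3.62 in WT 7 Gy, 4.85 to 5.83 in Il10-/- 0 Gy and 2.39 to 3.00 in Il10-/- 7 Gy. The mean of 6 of 6 T cell markers was 4.65 to 6.24, 4.01 to 5.46, 5.99 to 6.33 and 4.93 to 5.75 in the same groups. Both lists had at least 4 of 6 markers well above background on every array, and their part in the Tnfaip3 values was not tested.

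**Figure D3:**
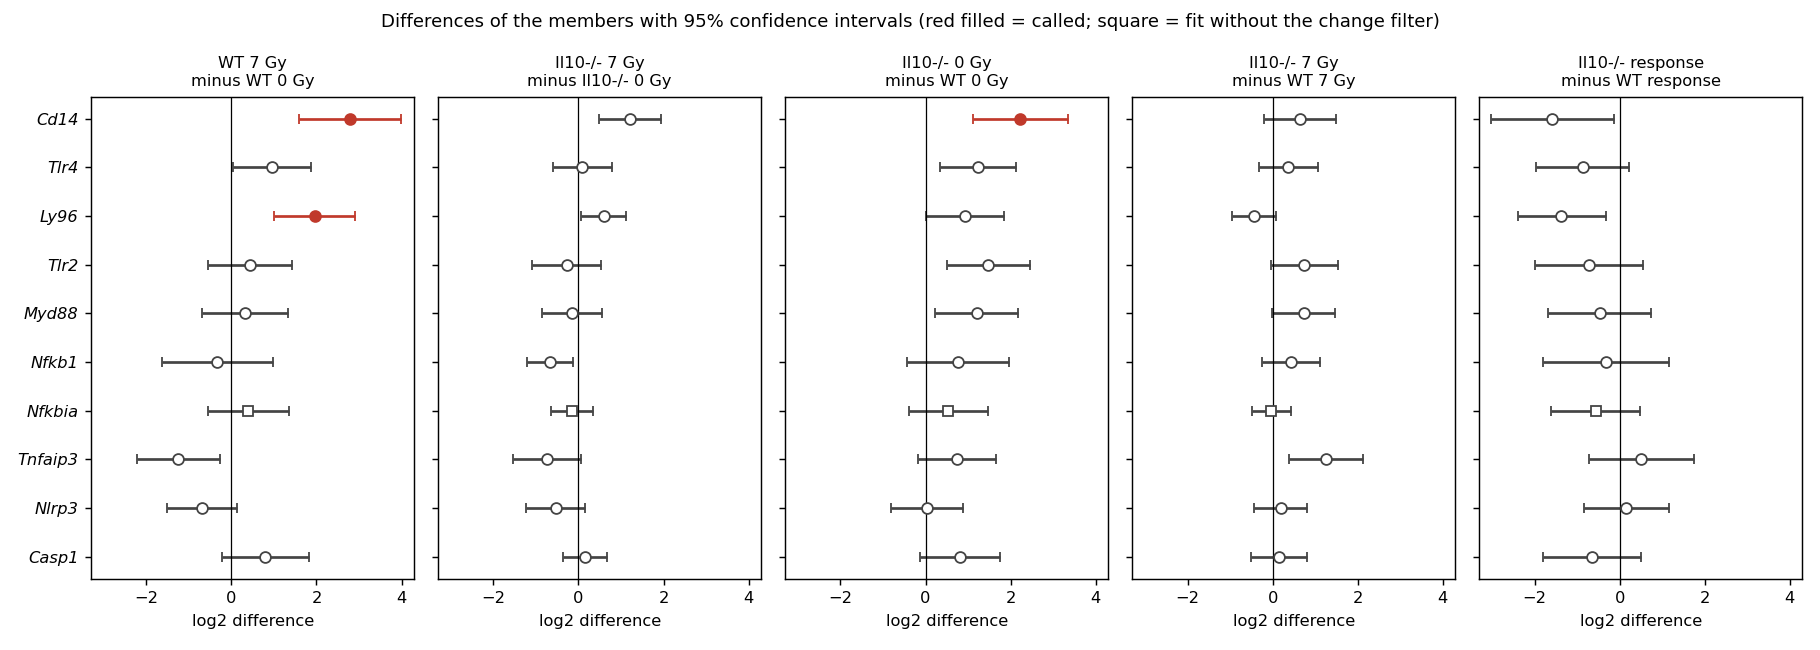
Log2 differences of the 10 members (y axis) in the 5 comparisons (panels), with 95% confidence intervals, filled red where called and open where not, and square for Nfkbia, which was read without the filter on change. Cd14 and Ly96 are called in the WT response and Cd14 at baseline, at 2.79, 1.96 and 2.23, and Tnfaip3 lies at −1.25 and −0.74 in the 2 responses.

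Because Nfkbia and Tnfaip3 are targets of NF-kB in textbooks, the 250 bases before their start sites were read for the NF-kB consensus motif, on both strands. From a table of RefSeq promoters (GRCm38.p6), 8 windows of 6 members were read (Tlr2, Myd88, Nfkbia, Tnfaip3, Nlrp3 and Casp1). Windows of the other members are not reported here. The motif matched in 4 of the 8 windows, against 3.90% of all 32851 windows, and in 4 of the 6 members, against 4.46% of all 27025 genes. Nfkbia, Tnfaip3 and Tlr2 are shown, since they are both feedback inhibitors and a receptor, and capitals mark the matched bases. The windows lie at chr12:55492648-55492897 for Nfkbia, at chr10:19015411-19015660 for Tnfaip3 and at chr3:83841609-83841858 for Tlr2, all on the minus strand and written 5′ to 3′ toward the gene.
Nfkbia: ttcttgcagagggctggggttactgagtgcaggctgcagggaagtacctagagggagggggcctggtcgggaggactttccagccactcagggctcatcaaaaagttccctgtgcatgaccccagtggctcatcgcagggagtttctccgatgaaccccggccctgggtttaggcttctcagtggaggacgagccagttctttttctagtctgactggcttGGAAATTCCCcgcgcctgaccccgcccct
Tnfaip3: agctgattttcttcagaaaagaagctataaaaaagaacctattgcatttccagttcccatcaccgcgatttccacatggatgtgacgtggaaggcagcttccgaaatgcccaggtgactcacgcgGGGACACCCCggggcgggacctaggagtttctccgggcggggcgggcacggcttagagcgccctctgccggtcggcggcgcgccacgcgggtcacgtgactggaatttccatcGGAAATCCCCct
Tlr2: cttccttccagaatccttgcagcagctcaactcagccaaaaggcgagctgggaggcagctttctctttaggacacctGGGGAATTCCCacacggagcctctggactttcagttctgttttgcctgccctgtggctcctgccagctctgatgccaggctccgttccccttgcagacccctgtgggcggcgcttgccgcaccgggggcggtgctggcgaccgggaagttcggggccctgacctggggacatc
The Nfkbia match, GGGAATTTCC on the opposite strand, lies at −29 to −20, counted back from the start. Tnfaip3 holds GGGGATTTCC on the opposite strand, at −12 to −3, and GGGACACCCC on the gene strand, at −125 to −116. In Tlr2 the overlapping GGGGAATTCC and GGGAATTCCC were found from −173 to −163, the latter on both strands. Nlrp3 held GGGGGTTCCC on the opposite strand at 1 of its 2 starts, and no match was found for Casp1, Myd88 or the second start of Tnfaip3. Of the members with a match, Nfkbia differed by 0.40 and −0.16 after 7 Gy in WT and Il10-/- mice, and Tnfaip3 by −1.25 and −0.74. A match describes the letters alone.

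Nlrp3, the sensor of the inflammasome, was dim. Its lead feature was well above background on 8 of 20 arrays, 2 in WT 0 Gy, 1 in WT 7 Gy, 4 in Il10-/- 0 Gy and 1 in Il10-/- 7 Gy. It read 0.47, 0.58, 0.21, 0.90 and −0.55 in WT 0 Gy and −0.86, −0.70, −0.06, −0.12 and −0.15 in WT 7 Gy. It read 0.60, 0.61, −0.48, 0.04 and 1.00 in Il10-/- 0 Gy and −0.27, 0.05, −0.42, 0.43 and −0.76 in Il10-/- 7 Gy. The differences after 7 Gy were −0.70 in WT mice (adjusted p = 0.253 in limma, and −0.80 without WT 0 Gy replicates 4 and 5) and −0.54 in Il10-/- mice (adjusted p = 0.246). The second feature gave −1.14 in WT mice (adjusted p = 0.0985), below 0 on 5 of 5 slides, and was not well above background on any Il10-/- 7 Gy array, so that no fold can be given for that group.

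Casp1 encodes caspase-1 and did not pass the test in any comparison. Its signal was 5.34, 5.14, 5.12, 3.54 and 3.18 in WT 0 Gy and 4.89, 4.96, 5.14, 5.13 and 6.22 in WT 7 Gy. It was 5.41, 5.44, 4.95, 5.30 and 5.24 in Il10-/- 0 Gy and 5.08, 5.03, 5.38, 5.70 and 5.91 in Il10-/- 7 Gy. The first 3 WT 0 Gy arrays lay among those of the other groups. The WT difference after 7 Gy was 0.80 (SE 0.49, 95% interval −0.23 to 1.83) with an adjusted p of 0.304 in limma, and that in Il10-/- mice was 0.15 (95% interval −0.36 to 0.67). At baseline Casp1 differed by 0.80 (adjusted p = 0.348), and without WT 0 Gy replicates 4 and 5 both the WT response and the baseline difference were 0.07.

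**Figure D4:**
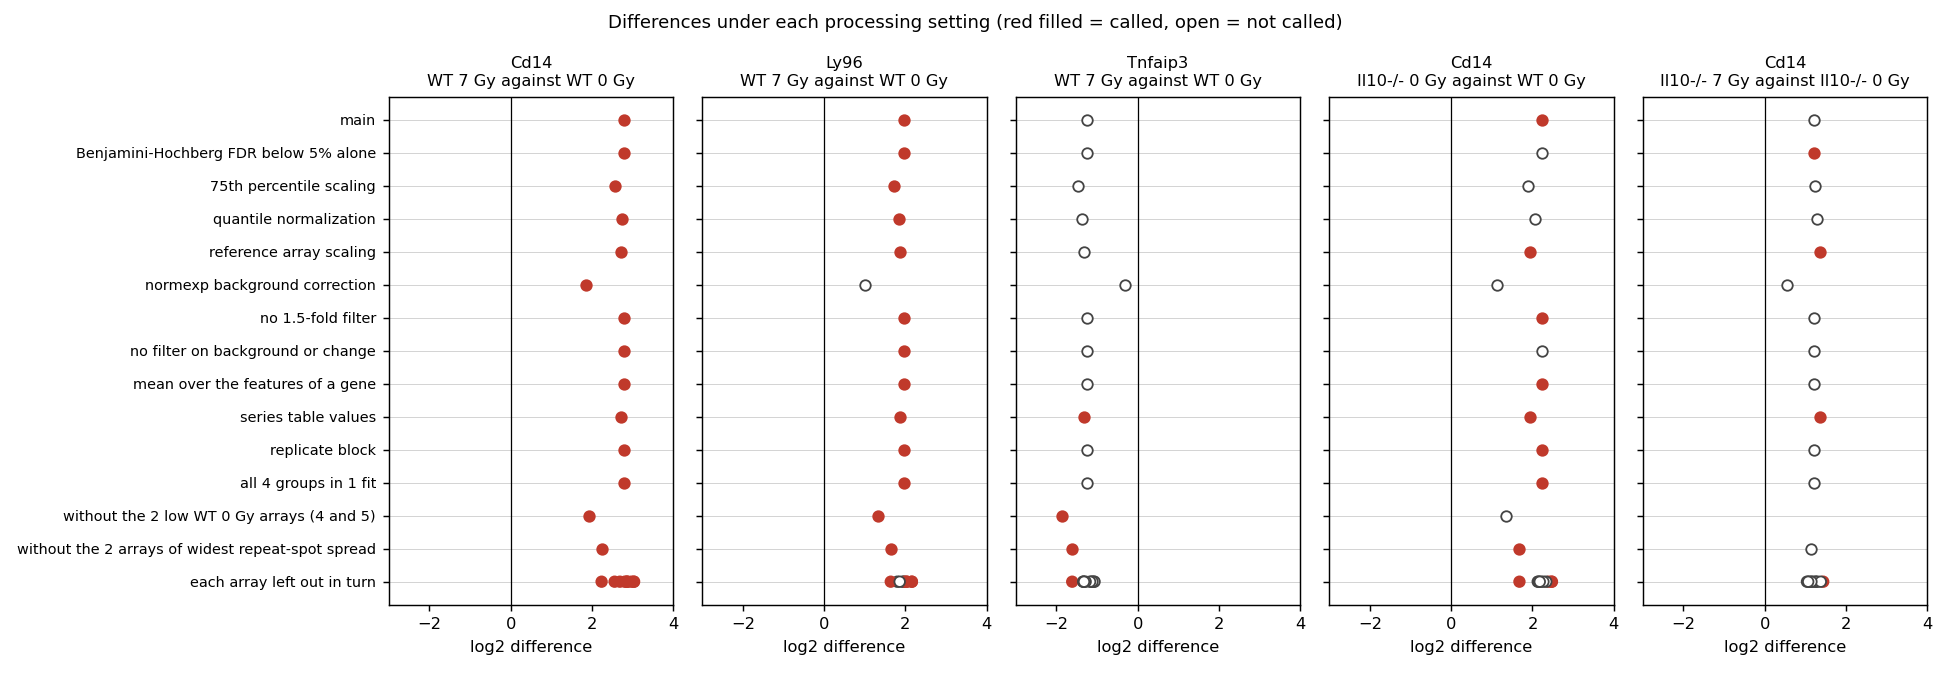
Log2 differences (x axis) of Cd14, Ly96 and Tnfaip3 under each processing setting (y axis) in 5 panels, filled red where called and open where not, with 1 point for each array left out in the bottom line. Cd14 in the WT response is called throughout, from 1.85 to 3.04, whereas Ly96 loses the call with normexp at 1.00 and Cd14 at baseline is called in some settings and not in others.

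Other genes of these pathways were counted in 3 lists of 58 genes, of which 42 were tested. Of 16 tested genes of LPS and Toll-like receptor signaling, 1 rose and 1 fell in WT mice after 7 Gy. Over all features 4.48% were called higher and 2.32% lower. Lbp, the LPS-binding protein made mainly by liver, read 0.65, 0.40, 0.80, −1.25 and −1.58 in WT 0 Gy, where it was well above background on 3 of 5 arrays, and 4.28, 4.71, 3.88, 3.54 and 5.26 in WT 7 Gy. It read 2.21, 2.54, 2.01, 2.75 and 2.36 in Il10-/- 0 Gy and 3.66, 4.19, 4.61, 3.30 and 4.84 in Il10-/- 7 Gy. WT 0 Gy was below all other arrays and each irradiated group was above its own control group. The Lbp rise was 4.53 in WT mice (SE 0.53, adjusted p = 0.000111 in limma) and 1.75 in Il10-/- mice (SE 0.31, adjusted p = 0.00265), and at baseline it was 2.57 higher in Il10-/- mice (SE 0.48, adjusted p = 0.0208). The Lbp baseline call was lost with quantile normalization, at 2.70, and with normexp, at 0.64, as was the Il10-/- call with normexp, at 0.72. The responses differed by −2.78 (SE 0.64), with an unadjusted p of 0.000226 and an adjusted p of 0.688 in limma. On WT 7 Gy replicates 1 to 5 the liver means were 12.28, 12.29, 9.48, 2.74 and 6.37, with Lbp lowest on replicate 4 and highest on replicate 5. In Il10-/- 7 Gy they were 10.34, 10.42, 1.15, 9.22 and 5.46, with Lbp again lowest on replicate 4 and highest on replicate 5. In Il10-/- 0 Gy they were 2.41, 2.27, 9.22, 10.57 and 1.88, with Lbp lowest on replicate 3 and highest on replicate 4. The part of liver RNA in the Lbp differences was not tested.

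Tlr1, a partner of TLR2 in lipoprotein sensing, fell by 2.25 in WT mice (SE 0.44, adjusted p = 0.00372 in limma) and by 2.07 in Il10-/- mice (SE 0.46, adjusted p = 0.00905). The Il10-/- call was lost on leaving out any 1 array except Il10-/- 7 Gy replicate 4, at −2.13 to −1.86. It was also lost with normexp, at −1.14, with no filters, with the replicate block and without the 2 arrays of widest spot spread. The WT call of Tlr1 was lost with normexp, at −0.58. Tlr6, the other partner of TLR2, was 1.39 higher at baseline in Il10-/- mice (adjusted p = 0.199), which was not called. At baseline and in the WT and Il10-/- responses 1, 2 and 2 of the 16 genes were called, beside 0.845%, 6.80% and 9.16% of all features. None was called between irradiated genotypes.

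Of 11 tested NF-kB subunits, kinases and inhibitors, 0 were called in WT mice in limma, although 0 of 11 differences were above 0 and the median was −0.68 against −0.02 over all features. The 2 largest of these differences were −1.35 for Tax1bp1 and −0.97 for Nfkbie. The list holds 17 genes, of which 16 passed the filter on background, and the filter on change left these 11. Among the untested genes, WT 7 Gy means were above WT 0 Gy for Chuk (5.04 against 4.56), Nfkbib (4.39 against 3.98) and Rela (6.55 against 6.48). They were lower for the rest. Without WT 0 Gy replicates 4 and 5, 5 of 11 fell: Ikbkb, Nfkb2, Nfkbie, Bcl3 and Tax1bp1, by 1.27, 1.37, 1.65, 1.26 and 1.69, where 7.79% of all features were called lower. In Il10-/- mice the median was −0.81, and Tax1bp1, a partner of A20, fell by 1.75 (SE 0.35, adjusted p = 0.00502), while Bcl3, a nuclear IkB protein, differed by −1.03 (adjusted p = 0.0206) and was not called. The Tax1bp1 call was lost without Il10-/- 0 Gy replicate 2, at −1.61, with all groups in 1 fit (adjusted p = 0.0249 in limma) and with normexp, at −1.90. In Il10-/- mice 5.87% of all features were called lower.

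Of 15 tested inflammasome genes, 1 rose in WT mice and 2 rose in Il10-/- mice, beside 4.48% and 3.29% of all features called higher. Pycard, which encodes the adaptor ASC that links NLRP3 to caspase-1, read 6.84, 6.82, 6.65, 5.58 and 4.2 in WT 0 Gy and 8.06, 8.03, 8.15, 8.40 and 9.30 in WT 7 Gy. It read 7.05, 7.00, 7.01, 7.38 and 7.04 in Il10-/- 0 Gy and 7.82, 7.72, 8.26, 8.0 and 9.09 in Il10-/- 7 Gy. Irradiated arrays were above unirradiated arrays in both genotypes. The Pycard rise was 2.37 in WT mice (SE 0.51, adjusted p = 0.00675 in limma), not called without WT 0 Gy replicate 4 (2.26) or without WT 7 Gy replicate 5 (2.14). Pycard differed by 1.08 in Il10-/- mice (SE 0.27, adjusted p = 0.0161), which was not called.

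Nlrp6, a sensor related to NLRP3, rose by 1.64 in Il10-/- mice (SE 0.29, adjusted p = 0.00259 in limma). That call was lost with all groups in 1 fit (adjusted p = 0.0168 in limma) and with normexp, at 0.50. In WT mice the Nlrp6 difference was 1.37 (adjusted p = 0.0899), and it was called without WT 0 Gy replicate 5, at 1.94. Panx1, a membrane channel that releases ATP, rose by 1.40 in Il10-/- mice (SE 0.31, adjusted p = 0.00807), a call lost with any of 7 arrays left out, at 1.21 to 1.42. The Panx1 call was also lost with normexp, at 0.99, and with the replicate block. Il18, the second cytokine that caspase-1 matures, differed by 1.73 in WT mice (adjusted p = 0.0313) and 0.86 in Il10-/- mice (adjusted p = 0.0226), on 5 of 5 slides each and with no call. Il18 was called in both at a Benjamini-Hochberg rate of 5% alone, in WT mice with all groups in 1 fit, and in Il10-/- mice, at 1.00, with the reference array or the series table.

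Without WT 0 Gy replicates 4 and 5, Nlrp6 rose by 1.97 and Mefv, which encodes the inflammasome sensor pyrin, fell by 1.25 in WT mice. Besides Lbp, no gene of the 3 lists was called at baseline, where the largest differences were P2rx7 at 1.35 and Casp4 at 1.34 for the inflammasome and Bcl3 at 0.88 and Tax1bp1 at 0.82 for NF-kB. None of the 42 genes was called between irradiated genotypes in limma, where Mefv differed by 1.12, Il1b by 0.92, Tlr6 by 0.90, Tollip by 0.71, Nfkbiz by 0.65 and Bcl3 by 0.53. For the difference between responses, also with 0 calls, the values were −1.29 for Pycard, −0.97 for Naip6, −0.77 for Ly86, 0.68 for Nfkbiz and −0.65 for Ikbkg.

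**Figure D5:**
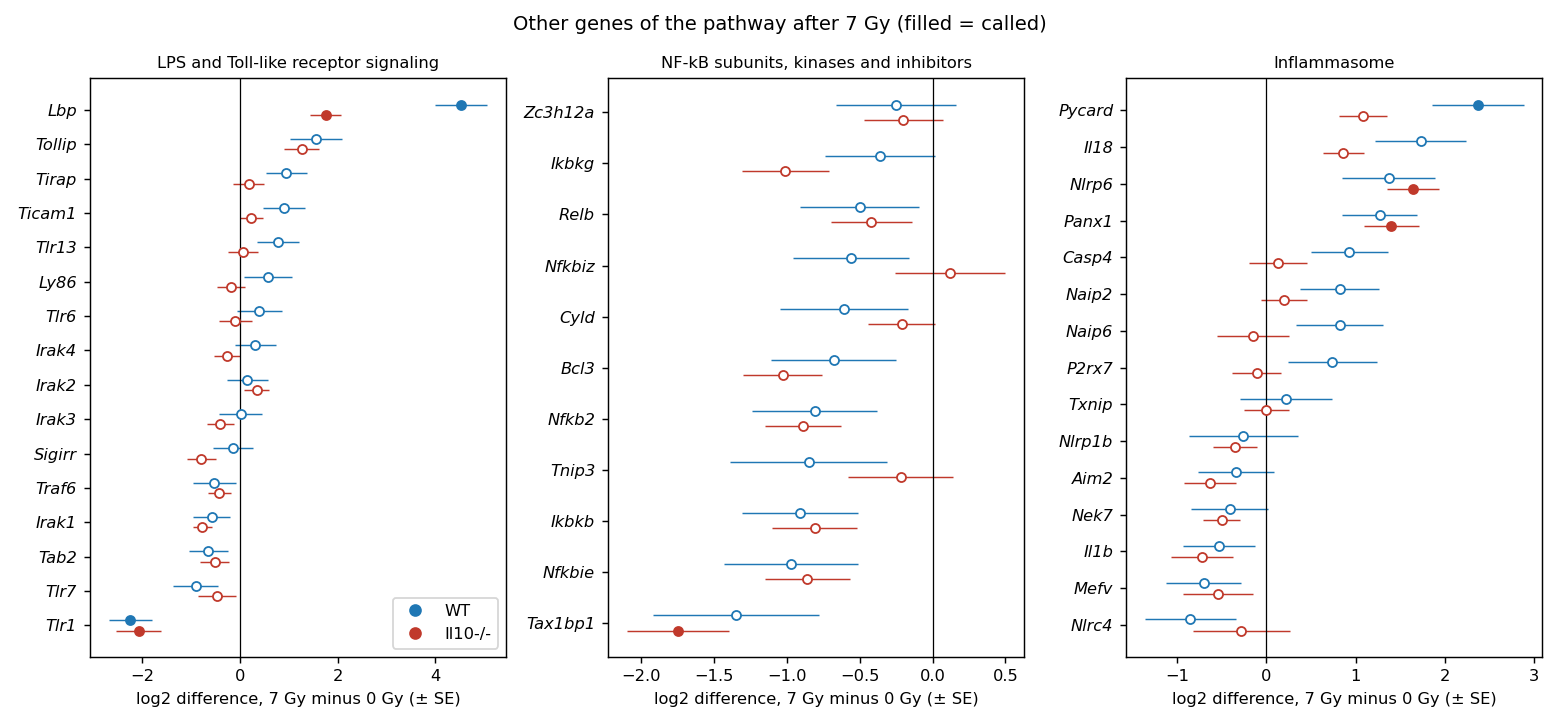
Log2 difference of 7 Gy minus 0 Gy with its SE (x axis) for the tested genes of 3 pathway lists (y axis), in WT mice (blue) and Il10-/- mice (red), filled where called. Lbp, at 4.53 and 1.75, and Tlr1, at −2.25 and −2.07, are called in both genotypes. In WT mice the 11 NF-kB genes that passed the filter on change lie below 0.

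Within groups the members moved together from mouse to mouse. After the group means were subtracted, Pearson's r over the 20 arrays had a median of 0.78 over the 45 pairs of members and exceeded 0.5 in 39 of them. Without WT 0 Gy replicates 4 and 5 the median was 0.57 and 31 pairs exceeded 0.5. Tlr2, Tlr4 and Myd88 were the closest, at 0.95 to 0.96 over all arrays and 0.92 for each of the 3 pairs without those 2 arrays. These values share array scale and cell make-up and are given as a description.

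Among 18741 genes above background, those most like Cd14 in this sense were Hmox1, Grk6 and Alox5, each at 0.97. For Tlr4 they included Ssh2 and Ehbp1l1 at 0.97 to 0.98, and for Tlr2 they were Mcemp1, Apobr and Zfp217 at 0.96 to 0.97. Ly96 was closest to Irf2bpl, Dnaja1 and Degs1 at 0.98, and Myd88 to Atf7ip, Lilrb4 and Slc2a6 at 0.98 to 0.99. For Nfkb1 the list was Ier2, Spg21 and Tbc1d2b at 0.95 to 0.98, for Nfkbia it was Smcr8, Usp3 and Kat2a at 0.98, and for Tnfaip3 it included an unnamed feature and Limd2 at 0.96. Nlrp3 reached 0.87 to 0.89 with 2010005H15Rik, Tprgl and Clcn3, and Casp1 0.97 to 0.98 with Sec24b, Fam168b and Lyz1.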

How the data were processed

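Blood RNA of 20 mice was hybridized to single-colour arrays, and the authors deposited 1 text file of Agilent's Feature Extraction software per array (version 10.7 per the labels, 12.0.2.2 per the file headers). The column used holds the processed intensity of each spot, background-subtracted by that software and deposited with no scaling across arrays. A second deposited table gives the authors' log2 values scaled to 1 reference array and served as an alternative. Here intensities were put on the log2 scale, outlier spots were dropped, repeated spots were averaged, and each array was centred on its median over 39429 features. Features marked as outliers or as not significant over background on at least 25% of arrays were dropped (22997 were left), and then those with under 20% of arrays 1.5-fold or more from their median (18587 were left). Pairs of groups were fitted in limma 3.58.1 (R 4.3.3), and the difference between responses in 1 fit of all 20 arrays. Exact permutation tests were two-sided (scipy 1.17.1). The fit was tested on simulated data. Promoter positions are in GRCm38.p6 and feature positions in mm9. Array numbers and signal over background limit the precision. The members, gene lists and tests were chosen with earlier results of these data known. The rule for naming pathway genes was those called and the 2 largest differences of a list, and some other genes are given beside them.

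Replicate numbers mark the slide. Deviations from the group means on shared slides correlated between −0.658 and 0.683. Every pair of groups had a slide at 0.1 or below, and the fit without the block was kept. Between the WT groups, however, the mean correlation was 0.223, and the block took the WT calls over all features from 1263 to 1625. Between the irradiated groups the mean correlation was 0.414. There the block narrowed the SE of Cd14 from 0.38 to 0.26 and that of Tnfaip3 from 0.40 to 0.29, with 0 members called. Features at an unadjusted p under 0.05 in limma went from 2066 to 3645 in that comparison. Alternatives were other scalings, background correction, filters, call rule, replicate block, all groups in 1 fit, the mean over features of a gene, the series table, and leaving arrays out. Of the marker lists, NK cell, erythroid, platelet and heart muscle levels were computed as well. For each member the 3 most alike genes were ranked, and 2 of these genes are not reported here.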

Additional observations from a re-analysis of the deposited data

Results flagged for a closer look

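In 2 of the 40 member-by-group sets of 5 arrays, 1 array stood farther from its neighbour than Dixon's limit allows, which chance gives in about 1 of 20 sets. Both concern replicate 5 of WT 7 Gy, which was the highest of its group for Cd14, at 5.90 with a gap of 0.770 of the group's range, and for Casp1, at 6.22 with a gap of 0.812. Leaving it out changed no call for Cd14 in the WT response, and the cause was not tested.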

How the results depend on the processing

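Of 1080 recomputed differences of the members, 1021 kept their direction and their side of the threshold, 17 lost the call, 8 gained it and 34 changed sign, 0 of them called. In WT mice after 7 Gy 2 members were called, with 1 under normexp and 1 to 3 with 1 array left out. The Il10-/- response had 0, with 1 (Cd14) at a Benjamini-Hochberg rate of 5%, with the reference array or with the series table, and 0 to 1 with 1 array left out. At baseline it was 1, with 0 at a rate of 5%, with the 75th percentile, quantile normalization, normexp, no filters, or without WT 0 Gy replicates 4 and 5, and 0 to 1 with 1 array left out. The replicate block gave the same counts of 2, 0, 1, 0 and 0 members, while over all features the baseline calls went from 157 to 384. In Cd14, the block gave an adjusted p of 0.00327 at baseline. Among the pathway genes the block ended the Il10-/- calls of Tlr1 (adjusted p = 0.0151) and Panx1 (adjusted p = 0.0177).

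The following signs changed. In WT mice Myd88 was −0.02 with quantile normalization, −0.45 without WT 0 Gy replicates 4 and 5, −0.01 without the 2 arrays of widest spot spread and −0.01 to 0.54 with 1 array left out, and Tlr2 was −0.26 without replicates 4 and 5. Nfkbia, which is not among the 1080, was then −0.27 in the WT response, −0.14 at baseline and 0.11 for the difference between responses. In Il10-/- mice Tlr4 was −0.25 and Casp1 −0.22 with normexp, and with 1 array left out Tlr4 ranged from −0.14 to 0.19 and Myd88 from −0.42 to 0.01. At baseline Nlrp3 was −0.32 with the 75th percentile, −0.25 with the reference array, −0.13 over both features, −0.07 without replicates 4 and 5, −0.19 without the arrays of widest spread and −0.19 to 0.24 with 1 array left out, and Nfkb1 was −0.30 without replicates 4 and 5. Between irradiated genotypes Nlrp3 was −0.16 with quantile normalization, and normexp gave −0.17 for Cd14, −0.09 for Tlr2, −0.18 for Tlr4, −0.12 for Myd88 and −0.57 for Casp1. For the difference between responses Nlrp3 was −0.20 with quantile normalization and −0.05 to 0.37 with 1 array left out, Tnfaip3 was −0.33 with normexp, and without replicates 4 and 5 Myd88 was 0.29, Nfkb1 0.73 and Casp1 0.09, with Nfkb1 at −0.63 to 0.26 with 1 array left out. The cause of these changes was not tested. Leaving out replicates 4 and 5 of WT 0 Gy, or the arrays of widest spread, was chosen after seeing the data.

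Over all features, calls in WT mice were 1263 in the reported fit, 2712 at a rate of 5% alone, 2119 with all groups in 1 fit, 2030 without replicates 4 and 5 and 261 with normexp. The Il10-/- response had 1702, 4053 at 5% and 0 with normexp (436 at an unadjusted p under 0.05). At baseline 157 compared with 20 to 81 under the other scalings, 5% or without replicates 4 and 5. Between irradiated genotypes 1 compared with 3 on the reference array and 13 with the series table. Dim features limit what can be read of Nlrp3.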

Other observations

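Marker lists not set beside a member above moved as follows. The mean of 5 erythroid markers differed by −2.40 after 7 Gy in WT mice and by −2.67 in Il10-/- mice, each on 5 of 5 slides with an exact permutation p of 0.00794, the smallest the design allows. The mean of 5 platelet markers was 1.27 higher in WT mice, on 5 of 5 slides with the same exact p, and 1.18 higher in Il10-/- mice, on 3 of 5 slides with an exact permutation p of 0.0556. The mean of 4 NK cell markers differed by 0.11 in WT mice and −0.04 in Il10-/- mice, with exact permutation p-values of 0.683 and 0.818. The mean of 4 of 5 heart muscle markers ranged from −0.73 to 2.69 in WT 0 Gy, 0.08 to 8.19 in WT 7 Gy, −0.63 to 3.79 in Il10-/- 0 Gy and 2.14 to 7.92 in Il10-/- 7 Gy.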
